A study of Mus musculus with 24 samples.

Results

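The transcripts of 4 secreted proteins of type 2 immunity, *Retnla*, *Chil3*, *Rnase2a* and *Ear2*, were followed in mouse macrophages that M-CSF, their growth factor, had raised from bone marrow cells (BMDM). They are 4 of the 56884 genes in the count table and were matched to it by symbol. They were chosen by their levels in these same libraries, so their levels and fold changes are given as a description, without a test. All 4 passed the filter on low counts, which for genes nearly silent in naive cells they did through the groups in which they were high.

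BMDM of wild-type C57BL/6J female mice were left naive or stimulated for 24 hours with IL-4 and IL-13 at 20 ng/ml each. In 4 further groups the cytokines were given with an inhibitor, after 1 hour of the inhibitor alone. These were tunicamycin at 5 µg/ml, which blocks N-linked glycosylation and stresses the endoplasmic reticulum, Sal003 at 10 µM, which keeps the initiation factor eIF2α phosphorylated, and, in the 2 remaining groups, oligomycin at 1 µM, an inhibitor of ATP synthase in mitochondria. The sample titles and the library names conflict on which of the oligomycin groups also received ISRIB at 1 µM, a compound that counteracts the integrated stress response. They are called oligomycin set A, with ISRIB by title only, and oligomycin set B, with ISRIB by library name only, and the choice was not settled from any measurement. Each group held 1 library from each of mice 1, 2, 4 and 5, so *N* = 4 mice throughout and 24 libraries in all. No inhibitor was given without the cytokines, and in bulk RNA fewer cells of a type and less RNA per cell cannot be told apart.

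IL-4 and IL-13 act through receptors that contain IL-4Rα and activate the transcription factor STAT6, and macrophages so activated release large amounts of a few proteins. *Retnla* encodes RELMα, a small cysteine-rich protein of the resistin-like family that restrains type 2 inflammation and takes part in tissue repair. *Chil3* encodes Ym1, a chitinase-like lectin without chitinase activity that can form crystals in inflamed lungs. *Rnase2a* and *Ear2* encode eosinophil-associated ribonucleases of the RNase A superfamily, the mouse relatives of human eosinophil-derived neurotoxin and eosinophil cationic protein.

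In GRCm39 *Retnla* (ENSMUSG00000061100) lies on the plus strand at chr16:48662895-48664824 and *Chil3* (ENSMUSG00000040809) on the minus strand at chr3:106054870-106074880. *Rnase2a* (ENSMUSG00000047222) lies on the minus strand at chr14:51492719-51493595, and *Ear2* (ENSMUSG00000072596) on the plus strand of the same chromosome at chr14:44311771-44340996. All are protein-coding. The 250 bases before the start of each canonical transcript were read from the genome and searched on both strands for motifs of factors that act in IL-4–activated macrophages or in the stress response, and are written 5′ to 3′ on the strand of the gene with matches in capitals. The canonical transcript of *Ear2* begins inside the annotated span of the gene. The windows are shown as a description, since the 4 genes, on 3 chromosomes, were chosen by their levels in these same libraries.
*Retnla*, chr16:48662645-48662894, plus strand: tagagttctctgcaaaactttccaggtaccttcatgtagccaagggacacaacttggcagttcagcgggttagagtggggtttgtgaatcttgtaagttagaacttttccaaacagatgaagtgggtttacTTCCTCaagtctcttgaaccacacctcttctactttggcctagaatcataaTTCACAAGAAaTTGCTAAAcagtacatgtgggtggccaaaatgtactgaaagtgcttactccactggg
*Chil3*, chr3:106074881-106075130, minus strand: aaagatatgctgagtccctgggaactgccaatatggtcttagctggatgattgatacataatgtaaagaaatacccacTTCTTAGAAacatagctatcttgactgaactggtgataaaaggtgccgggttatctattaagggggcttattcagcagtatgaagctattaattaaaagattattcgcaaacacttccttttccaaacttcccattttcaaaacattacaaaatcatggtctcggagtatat
*Rnase2a*, chr14:51493596-51493845, minus strand: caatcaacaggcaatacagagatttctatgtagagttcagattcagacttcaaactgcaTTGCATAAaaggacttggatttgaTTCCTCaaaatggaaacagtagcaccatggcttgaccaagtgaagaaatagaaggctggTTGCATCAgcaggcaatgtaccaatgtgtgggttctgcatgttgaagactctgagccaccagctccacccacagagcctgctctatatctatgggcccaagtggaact
*Ear2*, chr14:44339861-44340110, plus strand: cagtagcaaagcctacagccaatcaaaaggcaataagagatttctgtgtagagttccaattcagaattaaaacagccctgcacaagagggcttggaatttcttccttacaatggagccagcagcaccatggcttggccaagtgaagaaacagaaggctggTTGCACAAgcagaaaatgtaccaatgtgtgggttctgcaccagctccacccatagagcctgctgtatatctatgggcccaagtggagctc

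The letters TTCNNNNGAA, the spacing of STAT6 sites, occurred once in the *Retnla* window, from -68 to -59 relative to the start, next to a match to the C/EBP letters TTGCNNAA from -57 to -50. They occurred in 5.89% and 9.34% of the same windows of 21770 protein-coding genes. The *Chil3* window held the other STAT spacing, TTCNNNGAA, from -172 to -164 (7.7% of all windows), and so did that of its relative *Chil4*, at the same distance. *Ear2* held 1 C/EBP match, from -90 to -83, and *Rnase2a* held 1 from -191 to -184. GAGGAA, the core of PU.1 sites, was found upstream of *Retnla* from -119 to -114 and of *Rnase2a* from -167 to -162 (22.9% of all windows). The C/EBP-ATF letters TGATGNAA were found in *Rnase2a* from -108 to -101 (3.39%). No match to GAAANNGAAA (IRF, 3.32%), TGANTCA (AP-1, 6.17%) or TATAAA (11.9%) was in the 4 windows, and no 2 matches overlapped. A match is a run of letters, not a shown binding site. The STAT6-type letters also stood upstream of *Retnlg*, from -78 to -69, a relative that was not called higher with IL-4/IL-13.

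**Figure D1:**
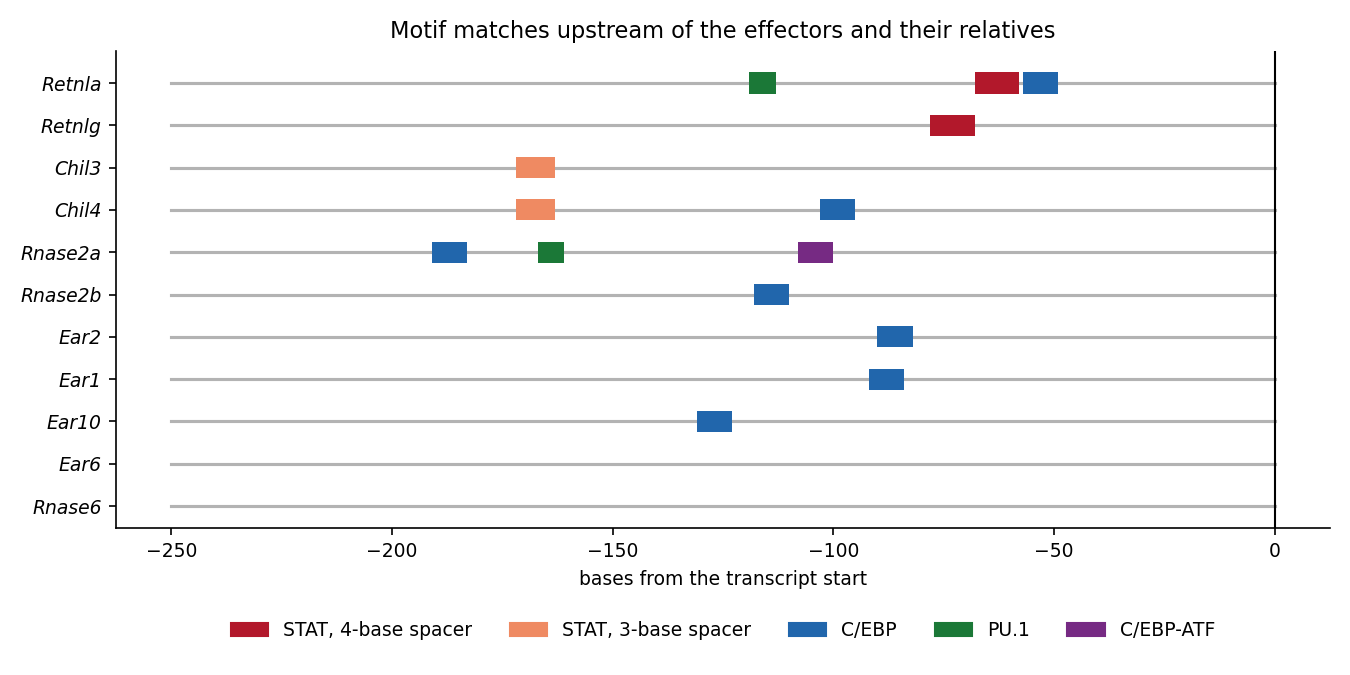
Matches to the motifs in the 250 bases before the transcript start (x axis, bases from the start at 0) of the 4 effectors and 7 relatives; each coloured bar is a match and its width is the length of the motif. The match to the STAT letters stands at the same distance in *Chil3* and *Chil4*, and *Ear6* and *Rnase6* had none.

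*Ear2* has near-identical copies, which decides how its counts can be read. Its coding sequence matched that of *Ear10* in 97.0% and that of *Ear1* in 95.7% of aligned bases, against 81.4% for *Rnase2a*. A stretch from coding base 272 to 331, in which *Ear2* and *Ear10* differ most, is shown with the bases that differ from *Ear2* in capitals.
*Ear2*: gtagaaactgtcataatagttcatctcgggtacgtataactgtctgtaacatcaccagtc
*Ear10*: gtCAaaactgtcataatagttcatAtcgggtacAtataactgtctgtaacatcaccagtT
*Ear1*: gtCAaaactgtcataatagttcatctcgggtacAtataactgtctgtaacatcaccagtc
*Rnase2a*: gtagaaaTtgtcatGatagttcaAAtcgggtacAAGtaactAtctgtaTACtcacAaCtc
*Ear10* differs from *Ear2* at 5 of these 60 positions, *Ear1* at 3 and *Rnase2a* at 13. Of all 100-base windows of the *Ear2* transcript, 13.8% were also found in transcripts of *Ear10*, pseudogenes or gene models, and of all 50-base windows 41.2%, those of *Ear1* included. Reads that align equally well to several places were not counted on any gene. With IL-4/IL-13, where *Ear2* had 6463 to 8269 counts, *Ear10* had at most 2, *Ear1* at most 4 and *Ear6* at most 1, and *Ear14* had 0 in every library. The upstream window of *Ear1* was identical to that of *Ear2* at 246 of 248 aligned bases. *Chil3* shares 5.42% of its 100-base windows with *Chil4* or the gene model Gm6522, and *Retnla* and *Rnase2a* share none. Part of the *Ear2* exons, 7.1%, overlaps the gene model Gm49099 on the other strand, and whether reads were counted by strand is not given in the sources used here.

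Library sizes ranged from 16238727 to 26725278 reads on genes, and levels are CPM, counts relative to the library size after TMM scaling. A group without a count can still hold up to 3 counts per library. Intervals and bounds given for ratios cover counting error only, not the spread between mice. For scale, at an adjusted *P* value under 0.05 and at least 2.5-fold, 5.39% of the 13679 genes tested were higher and 6.08% lower with IL-4/IL-13 than in naive cells. Against IL-4/IL-13 alone, 8.56% were higher and 14.0% lower with tunicamycin, 2.68% and 5.04% with Sal003, 4.79% and 7.96% with oligomycin set A, and 2.94% and 5.02% with set B. Between set A and set B these shares were 1.14% and 1.48%. The inhibitor comparisons share the IL-4/IL-13 libraries and are not independent of each other. Where groups are said below not to overlap, how many of all genes separate likewise was not counted.

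*Retnla* went from near silence to the highest level of any gene. Naive libraries of mice 1, 2, 4 and 5 held 0, 7, 1 and 0 counts. With IL-4/IL-13 the same mice had 7963, 8060, 7832 and 7161 CPM (7754 ± 406.4 CPM, mean ± SD, *N* = 4 mice), which was rank 1 of 56323 genes by TPM, here counts per length of all annotated exons of a gene, scaled to the same sum in each library. All 4 stimulated libraries were far above all naive ones, and the ratio of pooled counts was 74690 (95% interval 37910 to 173000). The ratio rests on mouse 2, which held 7 of the 8 naive counts: on the log2 scale it was 18.79 without this mouse, above that interval, and 15.73 to 15.98 without any other.

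With tunicamycin *Retnla* had 0, 1, 0 and 0 counts in the same order of mice. The ratio of pooled counts with IL-4/IL-13 alone to those with tunicamycin rests on that 1 count (604400, 95% interval 108500 to 23870000). Without mouse 2 the tunicamycin libraries held 0 counts, and at the limit of 3 counts per library the log2 fold change was then -15.56 or lower, a smaller bound than the interval gives. With Sal003 the levels were 150, 141, 259 and 67.9 CPM, with oligomycin set A 57.3, 49.3, 58.4 and 33.4 CPM, and with set B 348, 224, 388 and 161 CPM. Each of these libraries was below every IL-4/IL-13 library and above every naive library. Mouse 5 was lowest and mouse 4 highest in all of these groups. Set A and set B did not overlap, while the Sal003 range crossed that of set B, although in each mouse Sal003 was below set B. The log2 fold changes from IL-4/IL-13 were -5.65 (SE 0.32) with Sal003, -7.29 (SE 0.34) for set A and -4.79 (SE 0.30) for set B, and -2.50 (SE 0.28) for set A against set B.

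*Chil3* had the highest naive level of the 4 and kept the most of its stimulated level with Sal003 and oligomycin. Naive libraries had 9.61, 13.1, 9.76 and 8.1 CPM for mice 1, 2, 4 and 5, and IL-4/IL-13 libraries 3503, 3646, 3997 and 3092 CPM. The groups did not overlap, and the log2 fold change was 8.46 (SE 0.27). By TPM it was the gene of rank 7 in stimulated cells.

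With tunicamycin *Chil3* was at 1.59, 1.81, 2.67 and 0.866 CPM, so that every library was below every naive one as well. Pooled counts were 133 against 772 in naive cells, a naive level 5.87 times higher (95% interval 4.88 to 7.11). This interval is for counting error and leaves out the spread between mice. Sal003 libraries had 2547, 2181, 2615 and 1403 CPM, set A libraries 1500, 1434, 1475 and 1061 CPM, and set B libraries 2765, 1860, 2853 and 1453 CPM. All of these were below every IL-4/IL-13 library. The ranges of Sal003, set A and set B overlapped, set A reaching the others through their libraries of mouse 5. Within each mouse, however, set A was below both others, with a log2 fold change of -0.71 (SE 0.19) against set B. From IL-4/IL-13 the log2 fold changes were -0.70 (SE 0.19) with Sal003, -1.38 (SE 0.19) for set A and -0.67 (SE 0.19) for set B. The first and the last were under the 2.5-fold used for calls.

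*Rnase2a* had 0 counts in all 4 naive libraries. With IL-4/IL-13 it had 543, 551, 606 and 488 CPM, rank 22 by TPM and at least 3517-fold higher than in naive cells at the limit of 3 counts per library. Tunicamycin left 3, 1, 6 and 2 counts, 3558 times less than IL-4/IL-13 alone (95% interval 2036 to 6886). Sal003 libraries had 156, 138, 198 and 108 CPM, set A libraries 63.6, 67.8, 75.6 and 50.5 CPM, and set B libraries 124, 104, 141 and 88.6 CPM. Those of set A were below all of set B and of Sal003, while set B and Sal003 overlapped, although in each mouse Sal003 was above set B. From IL-4/IL-13 the log2 fold changes were -1.87 (SE 0.15), -3.09 (SE 0.16) and -2.26 (SE 0.16) with Sal003, set A and set B.

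*Ear2* had 7, 6, 8 and 19 counts in the naive libraries of mice 1, 2, 4 and 5. With IL-4/IL-13 it had 395, 405, 435 and 392 CPM, rank 60 by TPM, and the log2 fold change was 9.59 (SE 0.25). Tunicamycin left 0, 1, 0 and 3 counts, 7922 times less than IL-4/IL-13 alone (95% interval 3094 to 29080). Without mouse 5, which held 3 of the 4 counts, the log2 fold change was -14.55, against -12.92 to -12.55 without any other mouse. Its spread with IL-4/IL-13 was small, a coefficient of variation of 4.86%.

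The Sal003, set A and set B libraries of *Ear2* did not overlap, and how many of all genes separate in this way was not counted. Sal003 libraries had 53.5, 47.4, 70.1 and 35.1 CPM, set A libraries 3.79, 4.37, 5.08 and 4.40 CPM, and set B libraries 13.8, 11.2, 18.1 and 10.6 CPM, in the order given. The log2 fold changes from IL-4/IL-13 were -2.98 (SE 0.15), -6.53 (SE 0.19) and -4.93 (SE 0.17), and -1.60 (SE 0.21) between set A and set B. In set A the level was 8.44 times the naive one (95% interval 6.08 to 12.0), whereas *Chil3* there was 136.3 times its naive level.

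**Figure D2:**
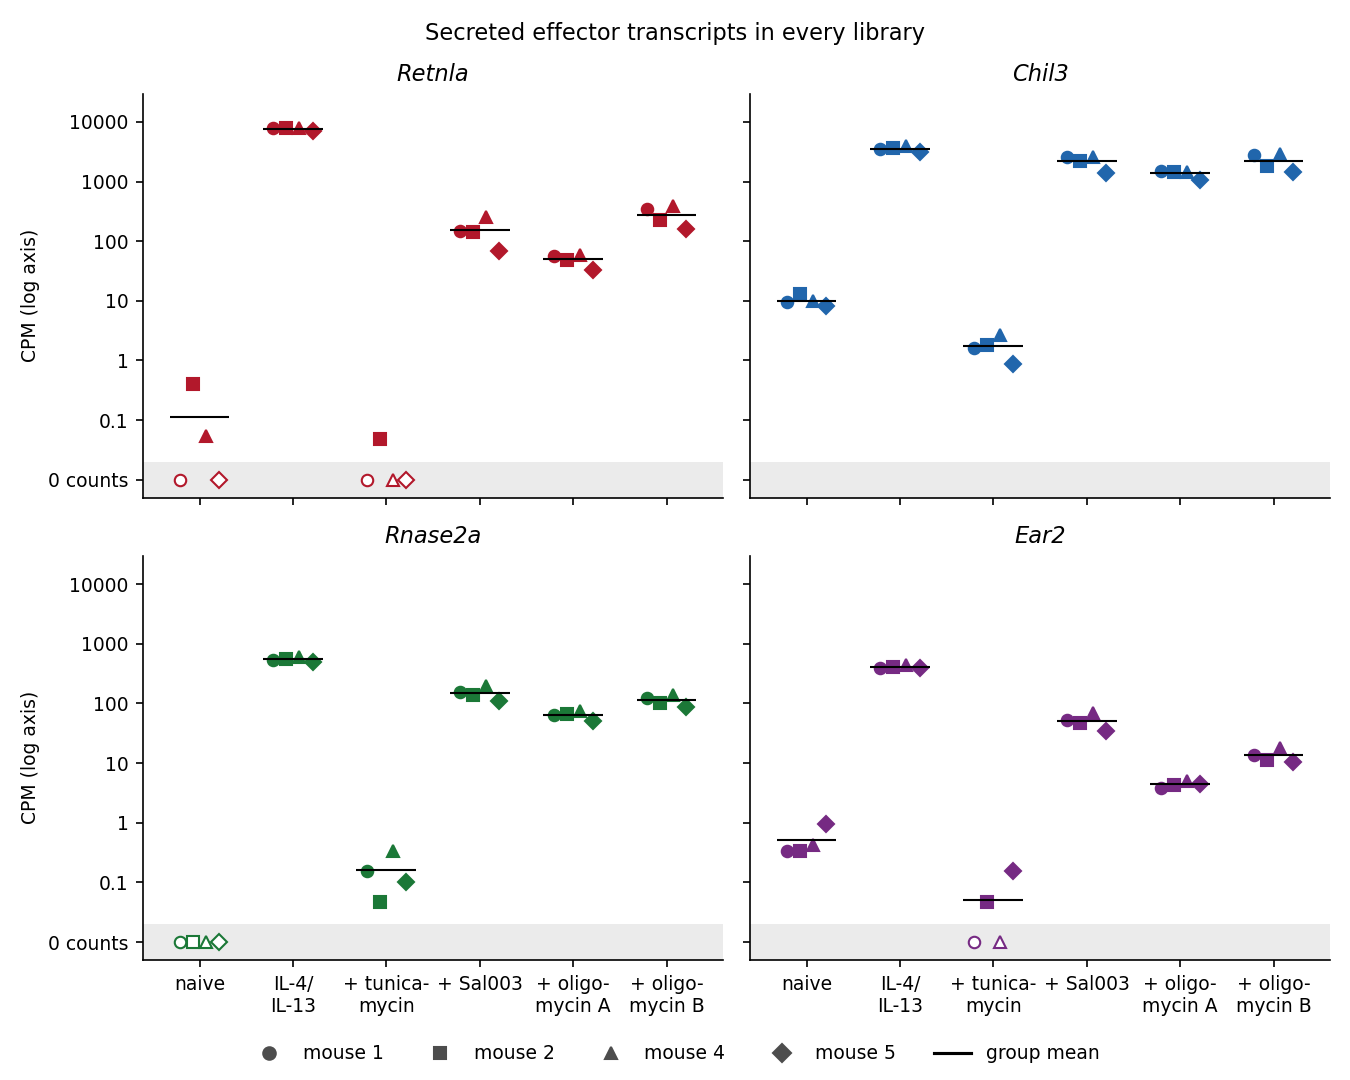
Level of each of the 4 transcripts in all 24 libraries (CPM, log axis; symbols give the mouse, lines the group mean); open symbols in the grey band are libraries with 0 counts, and no mean is drawn for a group whose mean falls in that band. All IL-4/IL-13 libraries lie above all others for each of these genes, which were chosen by their levels here. How many of all genes separate in this way was not counted. With tunicamycin *Chil3* lies below its naive level.

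The 4 transcripts did not lose the same share of their level. With Sal003, *Chil3* kept 60.8% ± 11.6 of the same mouse's IL-4/IL-13 level (mean ± SD, *N* = 4 mice), *Rnase2a* 27.2% ± 4.60, *Ear2* 12.6% ± 3.02 and *Retnla* 1.97% ± 0.983, and these ranges did not overlap. In set A the order was again *Chil3* (38.3% ± 3.62), *Rnase2a* (11.7% ± 0.959), *Ear2* (1.08% ± 0.0890) and *Retnla* (0.636% ± 0.127), without overlap. Set B kept 62.1% ± 15.5 of *Chil3*, 20.8% ± 2.66 of *Rnase2a*, 3.28% ± 0.695 of *Ear2* and 3.59% ± 1.28 of *Retnla*, and the last pair overlapped.

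Per length of all annotated exons, *Retnla* stood at 6.20 ± 0.452 times the TPM of *Chil3* in IL-4/IL-13–treated cells, but at 0.192 ± 0.0622 times with Sal003, 0.102 ± 0.0104 times under oligomycin set A and 0.349 ± 0.0293 times under set B. *Chil3* was thus the higher transcript of the pair in all 12 libraries of these 3 groups. The TPM of *Rnase2a* was 2.13 ± 0.107 times that of *Ear2* with IL-4/IL-13, 4.66 ± 0.166 times with Sal003, 23.3 ± 3.60 times in set A and 13.7 ± 1.07 times in set B. The annotated exons of *Ear2* sum to 1136 bases and its canonical transcript to 724, and with canonical lengths, chosen after seeing the data, *Rnase2a* stood at 1.36 ± 0.0682, 2.97 ± 0.106, 14.8 ± 2.29 and 8.70 ± 0.679 times *Ear2* in the same order of groups. *Retnla* then stood at 5.45 ± 0.398 times *Chil3* with IL-4/IL-13 and at 0.0895 to 0.307 times in the other groups. Together the 4 genes took 1.24% ± 0.0728 of all gene reads with IL-4/IL-13 and 0.00108% ± 0.000195 in naive cells.

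**Figure D3:**
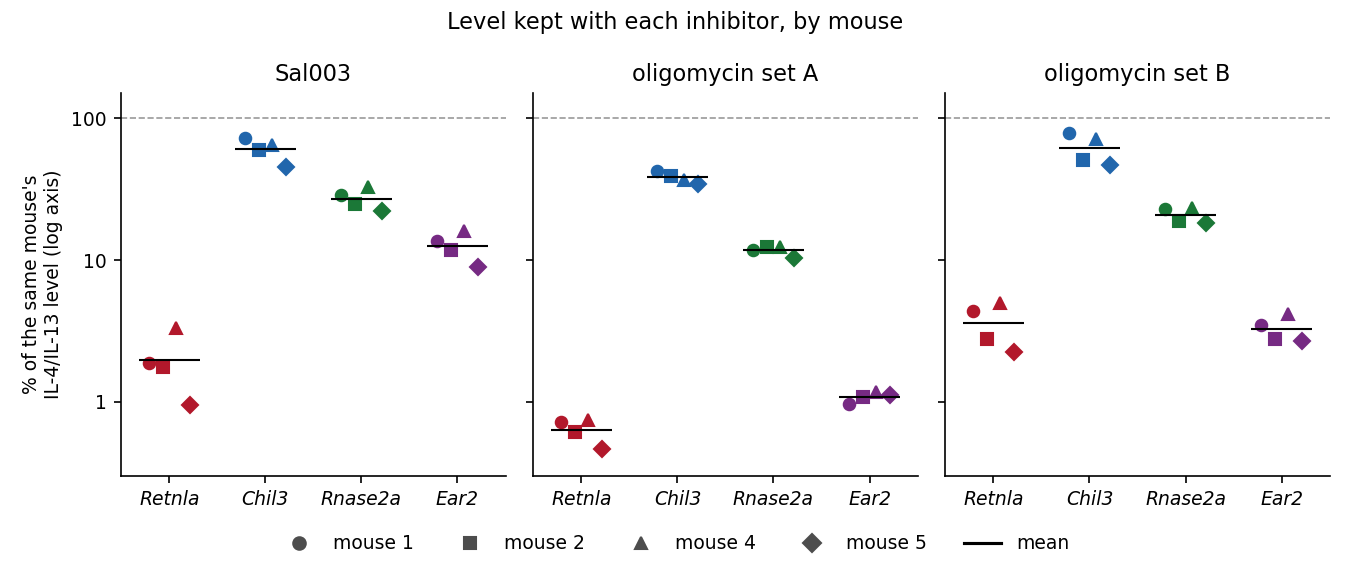
Share of the same mouse's IL-4/IL-13 level kept with Sal003 and in oligomycin sets A and B (percent, log axis; symbols give the mouse, lines the mean, the dashed line 100%). *Chil3* is highest in each panel, and *Retnla* and *Ear2* overlap in set B.

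Relatives of these genes were tested with edgeR's quasi-likelihood test and Benjamini-Hochberg adjustment over all 13679 genes. *Chil4*, *Rnase2b* and *Ang2*, at 0 counts in naive cells, passed the filter on low counts only through groups in which they were high. Their calls as higher with IL-4/IL-13, and as lower with an inhibitor against IL-4/IL-13 alone, are therefore not independent of that filter. In the chitinase-like family 4 of 9 further genes could be tested, and *Chil4*, which encodes Ym2, was the 1 called higher with IL-4/IL-13. It had 0 counts in all naive libraries and 142 to 181 counts with IL-4/IL-13, at least 55.7-fold higher (edgeR adjusted *P* = 9.1e-12). It was again at 0 with tunicamycin (adjusted *P* = 3.3e-12 in the edgeR test), and kept 46.5% ± 10.1 with Sal003 (log2 fold change -1.12, SE 0.21, edgeR adjusted *P* = 0.00021, not called), 33.6% ± 9.55 in set A and 35.7% ± 9.61 in set B. Its counts were 0.199% to 0.279% of those of *Chil3* in the IL-4/IL-13 libraries and 0.133% to 0.155% in set B, and the part of misassigned *Chil3* reads in them was not tested. *Chid1* and *Ctbs*, a chitinase-domain protein and the lysosomal enzyme chitobiase, and *Ovgp1* were called in no comparison, with log2 fold changes between -0.88 and 0.97.

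Of the resistin-like family only *Retnlg* passed the filter, at 13 to 26 counts in naive and 3 to 14 in IL-4/IL-13 libraries (log2 fold change -0.77, SE 0.46, edgeR adjusted *P* = 0.15). Its coding sequence matches that of *Retnla* in 84.0% of aligned bases. It fell to 0 counts in all tunicamycin libraries (edgeR adjusted *P* = 5.2e-05), and its calls of lower levels in the other inhibitor groups rest on 0 to 8 counts per library. The call in set A was lost without mouse 1 (edgeR adjusted *P* = 0.08), and that in set B without mouse 1 or mouse 2 (edgeR adjusted *P* = 0.17 and 0.15). *Retn* and *Retnlb* had at most 7 and 2 counts in any library.

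In the list of the RNase A superfamily and the inhibitor gene *Rnh1*, 6 of 19 genes were tested. Of these, 3 ribonuclease genes rose with IL-4/IL-13, *Rnase2b* and *Ang2* with the limit of the filter given above. *Rnase6*, an antimicrobial ribonuclease of macrophages, rose from 16.5 ± 1.28 to 98.3 ± 3.63 CPM (log2 fold change 2.58, SE 0.07, edgeR adjusted *P* = 1.2e-19). With Sal003 it was at 15.9 ± 2.01 CPM, in set A at 10.7 ± 0.780 CPM and in set B at 15.4 ± 1.40 CPM, and all 3 falls passed the test (edgeR adjusted *P* = 1.6e-18, 7.6e-21 and 5e-19). With tunicamycin, by contrast, it kept 40.3% ± 1.97, a log2 fold change of -1.31 (SE 0.07, edgeR adjusted *P* = 4.8e-15) that was under 2.5-fold and crossed it with DESeq2, upper-quartile scaling or only the groups compared.

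*Rnase2b*, the closest relative of *Rnase2a* among the tested genes with 83.7% identity, had 0 counts in naive and 21 to 39 in IL-4/IL-13 libraries (edgeR adjusted *P* = 9.1e-09). It fell with each inhibitor, to 2 to 6 counts with tunicamycin, 3 to 5 with Sal003 and 0 to 3 in sets A and B. *Ang2*, of the angiogenin ribonucleases, had 0 counts in naive and tunicamycin libraries and 19 to 28 with IL-4/IL-13 (edgeR adjusted *P* = 8e-09), with 8 to 15 counts left under Sal003, 7 to 15 in set A and 4 to 10 in set B. Its call in set A (log2 fold change -1.38, SE 0.29, edgeR adjusted *P* = 0.00042) passed below 2.5-fold without mouse 1 (-1.25) or mouse 2 (-1.28). Of the *Ang2* exon bases, 28.7% overlap the gene model Gm62421 on the other strand. Of its 50-base windows, 30.3% were also found in transcripts of other genes or gene models. *Rnase4* was called lower with tunicamycin (log2 fold change -1.94, SE 0.11, edgeR adjusted *P* = 5.2e-14) and in set A (-1.41, SE 0.11). In set B (-1.22, SE 0.11) and with Sal003 (-0.61, SE 0.11) its falls were under 2.5-fold. *Ang* was called in no comparison. Its log2 fold changes were -1.07 with tunicamycin, -0.98 in set A, -0.955 in set B and -0.08 with Sal003. *Rnase4* and *Ang* share exons on the same strand, 49.4% and 35.4% of their exon bases, so their reads cannot be told apart in full. *Rnh1*, the cytosolic inhibitor of these enzymes, was called in no comparison and stood at 360.0 CPM with IL-4/IL-13 and at 491 to 526 CPM in the Sal003 and oligomycin groups.

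**Figure D4:**
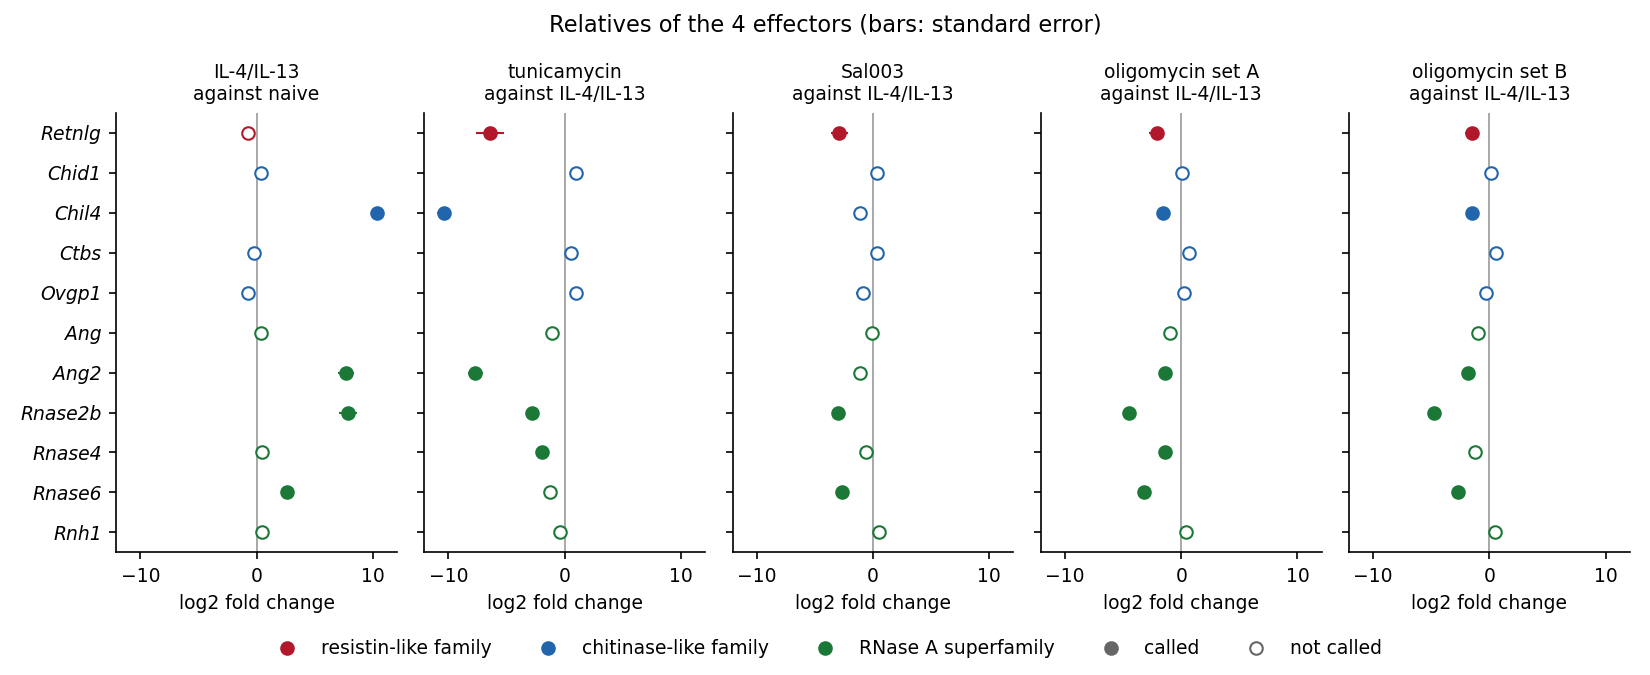
Log2 fold change (x axis, with standard error) of the 11 tested genes of the family lists, *Rnh1* included, in 5 comparisons. Filled points were called at an adjusted *P* value under 0.05 and 2.5-fold. *Chil4*, *Ang2* and *Rnase2b* have 0 counts in naive cells and *Chil4*, *Ang2* and *Retnlg* with tunicamycin, so the size of those fitted changes depends on the prior count of the fit.

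A further list held 20 receptors and factors of the IL-4/IL-13 pathway and of macrophage identity. Like the other gene lists, it was chosen with earlier results of these data known, so its counts and medians are a description. With IL-4/IL-13, 7 of its genes were called higher and 2 lower. The list median was -0.03 on the log2 scale, and that of all genes -0.02. The largest rises were those of *Cish*, an inhibitor of cytokine signalling (5.59, SE 0.16), *Egr2* (4.91, SE 0.08) and *Irf4* (4.51, SE 0.11), transcription factors of this activation state, with edgeR adjusted *P* = 9.1e-20, 3.5e-24 and 4.7e-21. With tunicamycin 2 were higher and 6 lower, and 0 were higher and 3 lower in each of Sal003, set A and set B. The largest falls with tunicamycin were those of *Irf4*, *Egr2* (-6.88, SE 0.09) and *Cish* (-5.57, SE 0.16), with Sal003 and in set B those of *Irf4*, *Cish* and *Myc*, and in set A those of *Irf4*, *Cish* and *Egr2*. *Irf4* changed in each, by -7.61 (SE 0.14), -1.79 (SE 0.09), -3.60 (SE 0.10) and -2.06 (SE 0.09). *Stat6*, *Il4ra* and *Cebpb*, which encode the transcription factor, the receptor chain and a C/EBP factor, were called in no comparison. Their log2 fold changes with inhibitors were between -0.50 and 0.23 for *Stat6*, -0.05 and 0.81 for *Il4ra*, and 0.25 and 1.28 for *Cebpb*. Between set A and set B 1 of the 20 was lower, *Irf4* (-1.54, SE 0.10, edgeR adjusted *P* = 6.4e-12).

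Of 30 other secreted products on the list, 7 rose and 7 fell with IL-4/IL-13, with a list median of 0.16. The largest changes were the rises of the chemokines *Ccl17* (6.01, SE 0.45) and *Ccl24* (5.36, SE 0.25) and of fibronectin, *Fn1* (4.49, SE 0.41). *Ccl17* had 0 to 1 counts in naive, 33 to 41 in IL-4/IL-13 and 0 in tunicamycin libraries. It passed the filter on low counts only through groups in which it was high, so its calls are not independent of that filter. The size of its change with tunicamycin depends on the prior count of the fit. With tunicamycin 4 were called higher and 18 lower, and the list median was -2.04 against 0.01 over all genes. The largest falls there were those of *Ccl17* (-8.33, SE 0.58), *Ccl24* (-7.81, SE 0.33) and the metalloelastase *Mmp12* (-7.53, SE 0.21). Sal003 had 4 higher and 7 lower, set A 4 and 12, and set B 3 and 6. *Fn1* (-3.35, SE 0.39, -3.64, SE 0.39, and -2.97, SE 0.38) and the coagulation factor chain *F13a1* (-3.22, SE 0.32, -3.10, SE 0.31, and -3.56, SE 0.33) were among the 3 largest changes in all of these 3 groups, beside *Ccl24* with Sal003 and in set B and *Ccl17* in set A. *F13a1* was already lower with IL-4/IL-13 than in naive cells (-2.89, SE 0.18), at 31 to 59 counts per library. It had 3 to 8 counts with Sal003, 1 to 10 in set A and 2 to 7 in set B. Between set A and set B 2 were higher, *Ccl7* (1.85, SE 0.19) and *Mmp13* (1.75, SE 0.10), and 5 lower. Among the lower was *Ccl17* (-1.92, SE 0.39), at 2 to 5 counts per library in set A and 8 to 14 in set B. Over all lists, 61 of 81 genes were tested, of which 18 rose and 9 fell with IL-4/IL-13, and 6 rose and 29 fell with tunicamycin. With Sal003 4 rose and 13 fell, with set A 4 and 21, with set B 3 and 14, and between the sets 2 and 6. The medians of these 61 genes in the same order were 0.35, -1.12, -0.14, -0.46, -0.08 and -0.19, where those of all genes lay between -0.02 and 0.01.

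All 7 macrophage markers were expressed in every group. Their summed level, to which *Lyz2*, lysozyme, gave the most with and without cytokines and with tunicamycin, was 30580 to 36300 CPM in naive, 11370 to 13770 CPM in IL-4/IL-13, 16070 to 17650 CPM in tunicamycin, 13800 to 15520 CPM in Sal003, 8721 to 9537 CPM in set A libraries and, for set B, 13400 to 15300 CPM. With tunicamycin, where the effectors were near 0, the markers went different ways against IL-4/IL-13 alone. *Csf1r*, the M-CSF receptor, was at 751.3 to 855 against 3463 to 4255 CPM, *Cd68* at 434 to 527 against 1182 to 1321 CPM and *Mertk* at 17.1 to 19.8 against 63.6 to 68.0 CPM. *Adgre1*, which encodes F4/80, was higher, at 6053 to 7296 against 869 to 1113 CPM, as were *Fcgr1*, at 218 to 242 against 34.4 to 39.7 CPM, and *Lyz2*, at 8456 to 8706 against 5538 to 6857 CPM. *Itgam* overlapped. *Rnase2a* and *Ear2* are known from eosinophils, so 5 eosinophil markers were set beside them, of which 3 had a mean of at least 1 CPM in naive and 2 in IL-4/IL-13 libraries. *Epx*, eosinophil peroxidase, reached at most 0.114 CPM in any library, and *Prg2* had 0.842 to 1.16 CPM with IL-4/IL-13 against 0.497 to 1.66 CPM in naive libraries. *Siglecf*, also carried by alveolar macrophages, moved with the effectors, from 0.966 to 2.14 CPM in naive to 17.7 to 24.3 CPM in IL-4/IL-13 libraries, then 0.170 to 0.476 CPM with tunicamycin and 7.82 to 10.2 CPM with Sal003. In oligomycin it had 3.55 to 5.45 (set A) and 13.7 to 15.8 CPM (set B). *Ccr3* was highest in naive cells, at 20.2 to 26.2 CPM. The summed eosinophil level was 22.6 to 29.0 CPM in naive, 31.5 to 35.0 CPM in IL-4/IL-13 and 1.28 to 1.59 CPM in tunicamycin libraries. The sum of 8 neutrophil markers also was lowest with tunicamycin, at 0.103 to 0.286 CPM, against 24.1 to 44.4 CPM with IL-4/IL-13. Markers of mast cells or basophils and of lymphocytes summed to at most 1.01 CPM and of dendritic cells to at most 6.37 CPM. The 4 alveolar macrophage markers, *Siglecf* among them, summed to 58.9 to 68.7 CPM with IL-4/IL-13 and 24.7 to 98.6 CPM with tunicamycin, where they moved in opposite directions. *Marco* went from 0.263 to 0.454 CPM to 22.8 to 96.7 CPM, *Fabp4* from 40.8 to 45.7 CPM to 1.38 to 2.10 CPM, and *Car4* was at most 0.0607 CPM in both. The part of these cell types in the results was not tested.

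The genes whose log2 CPM over the 24 libraries was most like that of a member, the other members aside, are given as a description, since the libraries of a group share their treatment. For *Retnla* they were *Inpp5a*, *Il31ra*, *Scn3a*, *Il27ra* and *Cish*, with Pearson's *r* of 0.99 for each. For *Chil3* they were *P2ry1*, *Lipn*, *Tmem26*, *Flt1* and *Pdcd1lg2*, the last of which encodes the ligand PD-L2 (*r* = 0.99 for each). *Rnase2a* was most like *Chil4* (*r* = 0.99), followed by Gm8113, *Ankrd55*, *Msx3* and *Slc30a4*. *Ear2* was most like *Olr1*, a scavenger receptor gene (*r* = 0.99), followed by *Ppargc1b*, *Septin9*, *Sdha* and *Scn3a* (*r* = 0.98 for each). Without the tunicamycin libraries 1, 1, 3 and 1 of these 5 genes were again among the 5 most alike of *Retnla*, *Chil3*, *Rnase2a* and *Ear2*. Among the members *r* ranged from 0.89 between *Chil3* and *Ear2* to 0.97 between *Retnla* and *Rnase2a*.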

How the data were processed

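The values are read counts per gene, deposited by the authors without normalization. Per the labels and the methods of the study, reads were trimmed with Cutadapt, aligned with STAR to GRCm39 and counted with HTSeq, and the processing notes name cutadapt 1.8, STAR 2.7 and HTSeq 0.9.1. The 5 totals that belong to no gene (12.7% to 15.2% of reads) were left out. The deposited TPM table was not used, because its header has more names than the table has columns.

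Genes were tested with edgeR 4.0.16 in R 4.3.3 (TMM, filterByExpr by group, quasi-likelihood test, Benjamini-Hochberg adjustment over 13679 genes) in 1 model over all libraries, and called at an adjusted *P* value under 0.05 and 2.5-fold, the study's thresholds. The script was tested on simulated data. The members and gene lists were chosen with earlier results of these data known, and the motifs after the promoters had been looked at. Named were all family genes with a mean of 10 counts in a group, the 3 largest called changes of each other list, *Stat6*, *Cebpb*, *Irf4* and *Il4ra*, and the 5 genes with the highest *r* (prior count 2). Positions are from GENCODE on GRCm39, which held 56323 of 56884 identifiers. By the titles a mouse number is shared across groups, and deviations from the group means of 1 mouse's libraries correlated with a median *r* of 0.236 (56 of 60 pairs above 0.1), against -0.054 for different mice. Alternatives were DESeq2 1.42.0, upper-quartile scaling, no filter, a replicate block, only the groups compared, no minimum fold, another prior count, leaving out each mouse and, added after seeing the data, ratios by canonical transcript length. TPM was computed from the counts with the length of all annotated exons.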

Additional observations from a re-analysis of the deposited data

Results flagged for a closer look

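Among groups of 4 libraries, 2 values each stood apart from the other 3 by a gap above Dixon's 95% limit (0.850 and 0.854 of the group's range), of 68 combinations of gene and group examined. Chance alone gives such a gap in about 1 of 20 groups. *Chil3* in oligomycin set A was at 1061 CPM in mouse 5, against 1434 to 1500 CPM in the other mice. *Ear2* in naive cells was at 0.944 CPM in mouse 5, against 0.341 to 0.429 CPM in the others, which is 19 counts against 6 to 8.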

How the results depend on the processing

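Of 60 counts of called relatives under alternatives, 54 stayed within 1.5 times. The 6 that did not were those without a minimum fold, 53 genes with IL-4/IL-13 against naive cells, 58 with tunicamycin, 49 with Sal003, 50 in set A, 44 in set B and 36 between the sets, since a lower threshold admits more genes. With the replicate block, which pairs libraries of a mouse, the counts were 27, 35, 17, 25, 17 and 8 in the same order, and no call of a named gene changed. Of 182 fold changes of the 4 effectors, 180 were taken as unchanged. They moved by less than the spread between mice or, for ratios of few counts above 0, stayed inside the 95% counting interval. The exceptions left out mouse 2, which held 7 of 8 naive *Retnla* counts and the 1 count with tunicamycin. Leaving out each mouse gave *Retnla* 15.73 to 18.79 on the log2 scale for IL-4/IL-13 against naive cells and -18.83 to -15.56 for tunicamycin, the last a bound at 0 counts. *Ear2* with tunicamycin ranged from -14.55 without mouse 5 to -12.55, inside its wide counting interval. Ratios of pooled counts, used where counts were few, were recomputed under other scalings and without each mouse, and have no block or prior count. With canonical transcript lengths, an alternative chosen after seeing the data, 7 of 8 ratios between effectors moved by more than the spread, and all kept their side of 1. Of 1051 values of named relatives, 1041 kept their direction and call and none reversed. *Rnase6* with tunicamycin became a call in 3 (-1.36, -1.34 and -1.33), and *Retnlg* between the sets in 1 without mouse 2 (-2.16). The other 6, of *Retnlg* and *Ang2*, lost the call, *Retnlg* in set B also with DESeq2 (adjusted *P* = 0.068). Levels under about 3 counts per library limit *Retnla*, *Rnase2a* and *Ear2* in naive or tunicamycin libraries.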
